A study of Mus musculus with 15 samples.

Results

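The gastrocnemius of old mice was compared with that of young mice on the same control diet, over 22626 probe sets of the MOE430A array, which are all probe sets of the deposited table except the 64 control probe sets. The comparison used 10 of the 15 arrays, with 1 array per mouse, namely 5 young mice of 5 months and 5 old mice of 25 months. All were male C57BL/6NHsd mice, housed singly and fed a control diet of 84 kcal per week, which the study set below what such mice eat freely, so that neither group was fed without limit. The other 5 arrays came from old mice on calorie restriction (CR). They entered here through the shared estimate of the spread in the fit and through the ranking of probe sets by mean brightness. They were also part of the fit with an RNA quality covariate that is described below. Nothing in the labels or the methods says that mice were pooled. In whole muscle, a loss of cells of a type and a loss of RNA per cell cannot be told apart.

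The gastrocnemius is a calf muscle of mostly fast fibers, and with age such muscle loses mass and motor neurons. The transcription factor p53 responds to DNA damage and other stress, and it activates genes that stop the cell cycle, assist repair or lead to cell death. Cdkn1a encodes p21, an inhibitor of cyclin-dependent kinases that is among the best known of its targets. Smad3 carries signals of TGF-beta and myostatin to the nucleus of the fiber, and the kinase Map2k6 turns on p38, which also acts in the differentiation of muscle cells.

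The labelled tissue carried its markers. The 5 fast fiber markers, among them Myh4, which encodes the fast IIB myosin heavy chain, had a median log2 difference (old minus young) of -0.16, and none of them was called. Myh4 was read at 29677, 31723, 26989.7, 28497 and 30299.9 in the young and 27683, 23021, 30217, 26765 and 30656 in the old mice. The 5 slow fiber markers had a median of -0.08, also with none called.

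At an adjusted p under 0.05 (limma, Benjamini-Hochberg over all probe sets), 60 probe sets were called, or 0.265% of those tested. Of these 27 rose (0.119%) and 33 fell (0.146%). One gene symbol was given for 49 of the called probe sets, 19 that rose and 30 that fell. The adjusted p of the 60 ranged from 0.015 to 0.0464. Among the brightest probe sets, as many of the highest mean as the study kept after its own filter, 251 rose (2.3%) and 345 fell (3.17%). The young and old values did not overlap in 816 probe sets (3.61%), and in 56 of the 60 called ones. With each array centered on its median, 32 rose and 12 fell. Leaving out any 1 array gave from 0 (without young replicate 1) to 1067 called probe sets (without young replicate 3), so that the number of calls says little by itself.

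Certain arrays stood apart. Young replicate 3 lay on the side of the old mice in many genes: without it 1067 probe sets were called (4.72%), 334 higher (1.48%) and 733 lower (3.24%) in old mice, and in 81.5% of these the value of young replicate 3 was nearer to the mean of the old mice than to that of the other young mice. All 60 probe sets called with it were also called without it. A measure of RNA quality differed with age. The log2 difference between the 3' and 5' control probe sets of Gapdh, which grows when the 5' part of the RNA is less well copied or kept, averaged -0.04 ± 0.19 over the 5 young and 0.25 ± 0.10 over the 5 old mice (± SD, exact permutation test, two-sided, adjusted p = 0.0397), and that of Actb was -0.32 ± 0.09 and 0.01 ± 0.11 (exact permutation test, two-sided, adjusted p = 0.0159). Young replicate 3 had the highest young values of both, 0.28 and -0.17. With the mean of both differences as a covariate no probe set was called (0%, limma, with 1453 at an unadjusted p under 0.05, or 6.42%). The 60 probe sets kept their direction in that fit, 51 of them with an unadjusted p under 0.05, with a median size of 0.81 times that without the covariate and a standard error 1.67 times as large. Of the 49 called genes with 1 symbol, 13 were over 1.5 times smaller in size with the covariate, and 8 of the 49 no longer had an unadjusted p under 0.05 there. These 8 were Cox15 at -0.40, Cyb5r3 at -0.92, Mbp at -0.85, Serpinf1 at -1.28, Smad3 at -0.93, Tgoln1 at -0.41, Tmed7 at 0.51 and Vcl at -0.66, each on the log2 scale. The other 5 were Acly at -0.97, Jarid2 at -1.78, Mpdz at -0.61, Pa2g4 at 0.43 and Rpl7l1 at -0.48. The part of RNA quality in the calls was not tested further. Old replicates 2 and 3 carried high epidermal keratins, which are described with the keratins below, and without these 2 mice 7 probe sets were called (0.0309%), and 57 among the brightest (0.523%), where all mice gave 596 (5.47%). All 60 kept their direction and an unadjusted p under 0.05 without them.

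Cdkn1a had one of the smallest adjusted p of any probe set. Its bright probe set was read at 309, 416, 441, 370.1 and 444 in the young and 946, 875, 905, 1109 and 1772 in the old mice. Every old mouse stood above every young one, and old replicate 5 was the highest. The group mean rose from 396 ± 57.1 to 1122 ± 375 (± SD over 5 mice), which gave a log2 difference of 1.46 (SE 0.19) and an adjusted p of 0.015 from limma. A second, dim probe set of the gene had 0.70 (SE 0.64) and was read at 34.4, 36.9, 23.8, 27.8 and 17.0 in the young and 12.01, 25.2, 119.6, 31.6 and 143 in the old mice, with overlap between the groups. The factor p53 binds a pair of short repeats, often with the core letters CATG. Cdkn1a was the one called gene in which a pair of CATG was found at the spacing searched. The sequence upstream of the first of the gene's annotated starts is therefore shown. It is RefSeq sequence of build GRCm38.p6, plus strand, chr17:29090729-29091028, covering 300 bases around the start, and the capitals mark the match.

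Cdkn1a: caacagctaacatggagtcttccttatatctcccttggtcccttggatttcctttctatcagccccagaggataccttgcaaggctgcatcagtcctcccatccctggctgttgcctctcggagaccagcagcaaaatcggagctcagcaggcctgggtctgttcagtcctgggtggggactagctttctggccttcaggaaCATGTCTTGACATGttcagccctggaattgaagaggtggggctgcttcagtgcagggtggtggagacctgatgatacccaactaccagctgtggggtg

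The motif searched was CATG, then any 6 bases, then CATG, which reads the same on both strands. It was found in 225 of 27025 genes with such a sequence (0.833%), in 1 of 14 genes with a sequence among those called higher and in 0 of 26 among those called lower. The other annotated start of Cdkn1a on the same strand had no match in its 300 bases. The cyclic AMP response element TGACGTCA, searched on both strands, was found in 549 genes (2.03%), in 1 of the 14 genes called higher (Ell2) and in 2 of the 26 called lower (Ptpn11 and Tmem183a). A match describes letters in this window and does not show a bound site. The lack of a match does not mean the lack of a p53 site, since other core letters and spacings were not searched.

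Signaling proteins were among the genes that fell most. Smad3, the transducer of TGF-beta and activin signals, was read at 443, 604, 237, 619 and 601 in the young and 227, 108, 121, 171 and 219.7 in the old mice. The groups did not overlap, although young replicate 3 and old replicate 1 were close. With age it changed by -1.55 (SE 0.29) on the log2 scale, and the other probe set of the gene had -1.08. Map2k6, the kinase that activates p38, has a single probe set, which was read at 1155, 979.7, 1073, 1026 and 1034 in the young and 621, 503, 588, 365 and 527 in the old mice. Each old mouse was well below each young mouse, the young mice agreed closely with each other, and the log2 difference was -1.04 (SE 0.14) with an adjusted p of 0.015 (limma). Ptpn11, the tyrosine phosphatase SHP2 of growth factor signaling, fell at a dim probe set, read at 242, 147, 95.7, 195 and 167 in the young and 43.1, 20.8, 49.8, 56.7 and 22.8 in the old mice. Its log2 difference was -2.18 (SE 0.36), while its other probe sets had -0.65 and 0.15, the higher of them at the brightest probe set of the gene. Jarid2, a partner of the Polycomb complex that methylates histone H3, was read at 212, 111, 25.6, 148 and 152 in the young and 15.5, 9.03, 30.9, 7.33 and 16.7 in the old mice. The groups overlapped, since young replicate 3 was below old replicate 3, and the log2 difference was -2.93 (SE 0.51) against -0.45 and -0.38 at brighter probe sets.

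Secreted and membrane proteins also fell. Serpinf1, which encodes the secreted factor PEDF, was read at 473, 800.4, 116, 1251 and 1141 in the young and 90.7, 61.8, 96.7, 54.4 and 112 in the old mice. Young replicate 3 stood just above the highest old mouse and far below the other young mice. This gave a log2 difference of -2.84 (SE 0.54), and the brighter probe set of the gene, which had -0.86 (SE 0.17), was called among the brightest probe sets (adjusted p = 0.0126, limma) and not over all of them (adjusted p = 0.0556). Steap3, a ferric reductase that acts in iron uptake, was read at 291, 477, 259, 512 and 381 in the young and 66.3, 162, 83.8, 42.7 and 162 in the old mice, without overlap. Its log2 difference was -2.03 (SE 0.38), and its other probe sets had -1.49 and -1.06, all in the same direction. Mbp, which encodes a protein of the myelin sheath and, from an upstream start, the related golli proteins, fell at 1 of its 8 probe sets. That probe set was read at 580.0, 658, 235, 620.4 and 473 in the young and 65.8, 165, 212, 218 and 121 in the old mice, a log2 difference of -1.75 (SE 0.34). The other probe sets of Mbp had -0.80, -0.24, -0.22, -0.03, 0.02, 0.08 and 1.22, and the brightest of them had 0.02 (SE 0.20). Adam17, the protease that sheds TNF from the cell surface, fell by 1.03 on the log2 scale at 1 probe set and was at -0.05 and 0.03 at the others.

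Of proteins of the Golgi and of sugar transport, Slc35a2, which carries UDP-galactose into the Golgi, was read at 378, 452, 369.9, 395 and 323 in the young and 215, 54.1, 205, 60.7 and 58.0 in the old mice. Old replicates 1 and 3 were higher than the other old mice, and none reached the lowest young mouse. The log2 difference was -1.98 (SE 0.37), and the other probe sets had -0.71, -0.42 and 1.51. Entpd7, which cleaves nucleotides in internal membranes, was read at 64.5, 66.7, 61.7, 58.6 and 132 in the young and 21.7, 6.01, 17.9, 30.3 and 19.5 in the old mice, at the dim end of the scale. Its log2 difference was -2.11 (SE 0.37) and the other probe sets had -0.61, -0.37 and 1.29. Tgoln1, a protein that cycles through the trans-Golgi network, was called at 1 of 4 probe sets, with a log2 difference of -0.91 (SE 0.16). Its other probe sets had -1.10, -1.07 and 0.33, and the one at -1.07 was called among the brightest (adjusted p = 0.0136, limma). Extl1, a glycosyltransferase that acts on heparan sulfate, had -0.87 (SE 0.16), and Snap29, a SNARE protein of membrane fusion, had -0.82 (SE 0.15). The other probe sets of Snap29, both brighter, had -0.37 and 0.19.

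Among proteins of the cytoskeleton and cell contacts, vinculin, encoded by Vcl and found at costameres, where the fiber is anchored to the matrix, was read at 476, 406, 173, 540.1 and 414 in the young and 139, 156, 165, 99.3 and 109 in the old mice. Young replicate 3 lay just above the highest old mouse and far below the other young mice. Vcl changed by -1.52 (SE 0.28) on the log2 scale, against -0.14 at the brighter probe set. Mpdz, a scaffold with many PDZ domains, was read at 501, 573, 334, 526 and 560.5 in the young and 249.97, 219, 230.5, 243 and 264 in the old mice, a log2 difference of -1.02 (SE 0.16), while the other probe set had -0.08.

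Redox enzymes and proteins of mitochondria were also among the genes that fell. Cyb5r3, which passes electrons from NADH to cytochrome b5, was read at 439, 407, 167, 511 and 405 in the young and 166, 135, 175, 129 and 91.1 in the old mice. Young replicate 3 was lower than old replicate 3, so that the groups overlapped. The log2 difference was -1.41 (SE 0.27), and the other probe sets had -0.27, -0.02 and 0.34. Cyb5b, the cytochrome b5 of the outer mitochondrial membrane, fell with -0.83 (SE 0.16), and its other probe sets had -0.75 and -0.19. Cox15, needed to make heme A for cytochrome oxidase, had -0.95 (SE 0.18), and Timm44, part of the motor that imports proteins into the matrix, had -0.69 (SE 0.12). For both, the other probe sets were smaller in size, at -0.31, -0.19 and -0.12 for Cox15 and -0.26 and 0.13 for Timm44.

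Further genes called lower act in RNA and protein handling. Ddx19b, an RNA helicase of mRNA export, was read at 108, 184, 45.9, 74.1 and 139 in the young and 28.5, 13.7, 20.1, 32.5 and 25.0 in the old mice, with a log2 difference of -2.11 (SE 0.36) and -0.25 and -0.21 at the brighter probe sets. Ltn1, the ligase that marks proteins stalled on the ribosome, was read at 180.1, 215, 211, 280.3 and 192 in the young and 108, 101, 84.3, 43.0 and 36.1 in the old mice. Old replicates 4 and 5 were lowest, and the log2 difference was -1.65 (SE 0.31) against -0.18, 0.14 and 0.23 at the other probe sets. Exosc7, a subunit of the RNA exosome, fell with -0.91 (SE 0.14). It was read at 1045, 1248, 871, 1252 and 1203 in the young and 579, 666, 717, 517 and 504 in the old mice, far apart for a bright probe set. Rpl7l1, a protein of ribosome assembly, had -0.76 (SE 0.14), while its other probe set had 0.14 (SE 0.18). Lamtor4, a subunit of the lysosomal complex that recruits mTORC1, had the tightest old values of these genes, 478, 491, 489, 495 and 512, against 827, 799, 772, 966 and 853 in the young mice. The other genes called lower were Itm2a, a membrane protein of muscle and cartilage (-0.80 (SE 0.14)), the sperm calcium channel Catsper1 (-1.05 (SE 0.19)) and A230006K03Rik (-1.31 (SE 0.20)). The other probe set of Itm2a had -0.31 (SE 0.21).

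Among the rises, proteins of the nucleolus and of transcription stood beside Cdkn1a. Npm1, which encodes nucleophosmin, a nucleolar chaperone of ribosome assembly that also binds p53 regulators, was read at 1586, 1257, 1657, 1123 and 1236 in the young and 2256, 2628, 2214, 3405 and 2683 in the old mice. Each old mouse was above each young mouse, and old replicate 4 was highest. Npm1 rose by a log2 difference of 0.94 (SE 0.17) with an adjusted p of 0.0417 (limma), and the other probe set had 0.47. Pa2g4, a growth regulator that binds ribosomal and ErbB3 proteins, rose at 1 of 5 probe sets (0.68 (SE 0.13)), and its other probe sets had -0.19, -0.16, 0.26 and 0.29. The brightest of these was at -0.19 (SE 0.15), in the opposite direction. Ell2, a transcription elongation factor, rose with 0.81 (SE 0.15).

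Several of the genes that rose act at membranes. Cpne2, which encodes a calcium-dependent phospholipid-binding protein of the copine family, was read at 25.9, 57.8, 38.1, 64.5 and 27.0 in the young and 222, 351, 326, 404 and 409.6 in the old mice. Its log2 difference of 3.07 (SE 0.55) was the largest rise with 1 gene symbol, and no old mouse came near a young one. Gprc5b, an orphan receptor, was read at 62.7, 62.0, 80.6, 56.4 and 57.1 in the young and 324, 496, 281, 259 and 188 in the old mice, a log2 difference of 2.22 (SE 0.38). The brighter probe set of Gprc5b had -0.05. Pip5k1a, a kinase that makes the lipid PIP2, was read at 121, 126, 101, 184 and 98.8 in the young and 487, 425, 673, 705 and 515 in the old mice, a log2 difference of 2.16 (SE 0.41). Its other probe sets, all brighter, had 0.02, 0.15 and 0.35. Gdpd5, a phosphodiesterase of glycerophospholipids, was read at 139.9, 71.0, 75.6, 98.2 and 46.2 in the young and 439, 271, 264, 368 and 279.6 in the old mice, without overlap, and its log2 difference was 1.98 (SE 0.34). Kcnab1, a subunit that modifies voltage-gated potassium channels, had probe sets that moved alike. Its called probe set had 0.71 (SE 0.13) and the brighter one 0.77 (SE 0.21), which was called among the brightest probe sets (adjusted p = 0.0349, limma).

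Proteins of vesicle traffic were also among the rises. Tmed7, a cargo receptor between the endoplasmic reticulum and the Golgi, was read at 267, 289, 349, 253 and 362 in the young and 659, 702, 549, 564 and 394 in the old mice. Old replicate 5 was the lowest old mouse and still above all young mice. Tmed7 had a log2 difference of 0.90 (SE 0.17), and its other probe sets had 0.33, 0.43 and 0.70, all positive. Rab2a, a small GTPase of the same step, rose at a dim probe set read at 69.2, 68.8, 97.5, 68.0 and 98.2 in the young and 159, 188, 146, 178 and 128 in the old mice. Here the difference was 1.001 (SE 0.16) on the log2 scale, and the other probe sets had 0.02, 0.12, 0.13, 0.28, 0.42 and 0.44, the bright ones among them included. Fkbp15, a protein of endosome movement, was read at 32.2, 57.6, 38.4, 44.3 and 32.5 in the young and 229.9, 67.9, 122, 89.8 and 102 in the old mice, with a log2 difference of 1.48 (SE 0.28), and old replicate 1 was far above the rest. Clint1, an adaptor of clathrin coats, rose with 0.71 (SE 0.12). It was read at 1011, 790.0, 897, 706 and 869.6 in the young and 1399.8, 1527, 1256, 1445 and 1305 in the old mice.

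The remaining rises were of genes with separate roles. Lgals3, which encodes galectin-3, a lectin of macrophages and epithelia, was read at 247, 279, 199.95, 285 and 258 in the young and 365, 1329, 1044, 507 and 772 in the old mice. Old replicates 2 and 3, the mice with high epidermal keratins, were highest. The log2 difference was 1.52 (SE 0.29), and 1.05 without these 2 mice. Aldh1a1, which makes retinoic acid from retinal, was read at 1980.1, 1234, 2330.2, 2042 and 2213 in the young and 3754, 3529, 3672, 3978 and 3355 in the old mice, a log2 difference of 0.93 (SE 0.17). Young replicate 2 was the lowest young mouse by a wide margin, and no old mouse came down to the highest young one. Spint2, an inhibitor of serine proteases at epithelial surfaces, was read at 184, 184, 172, 122 and 167 in the young and 321, 344, 322, 320.2 and 418 in the old mice. Its log2 difference was 1.07 (SE 0.17), and the brighter probe set had 0.48.

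The 6 other called genes with 1 symbol were Panx1, a channel protein of the membrane, the amylase Amy1 and the cyclic AMP phosphodiesterase Pde4b, which rose by log2 differences of 2.12 (SE 0.29), 1.35 (SE 0.19) and 1.09 (SE 0.14), and Tmem183a, cardiac actin (Actc1) and ATP citrate lyase (Acly), which had -2.99 (SE 0.39), -2.16 (SE 0.38) and -1.92 (SE 0.29). Of the 11 called probe sets with several gene symbols or none, 8 rose, with log2 differences from 0.76 to 3.75, and 3 fell, with -1.07 to -0.88. Among the rises were probe sets that the paper lists as immunoglobulin kappa chain. They had 3.75 (SE 0.66), 3.16 (SE 0.51) and 2.48 (SE 0.47).

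**Figure D1:**
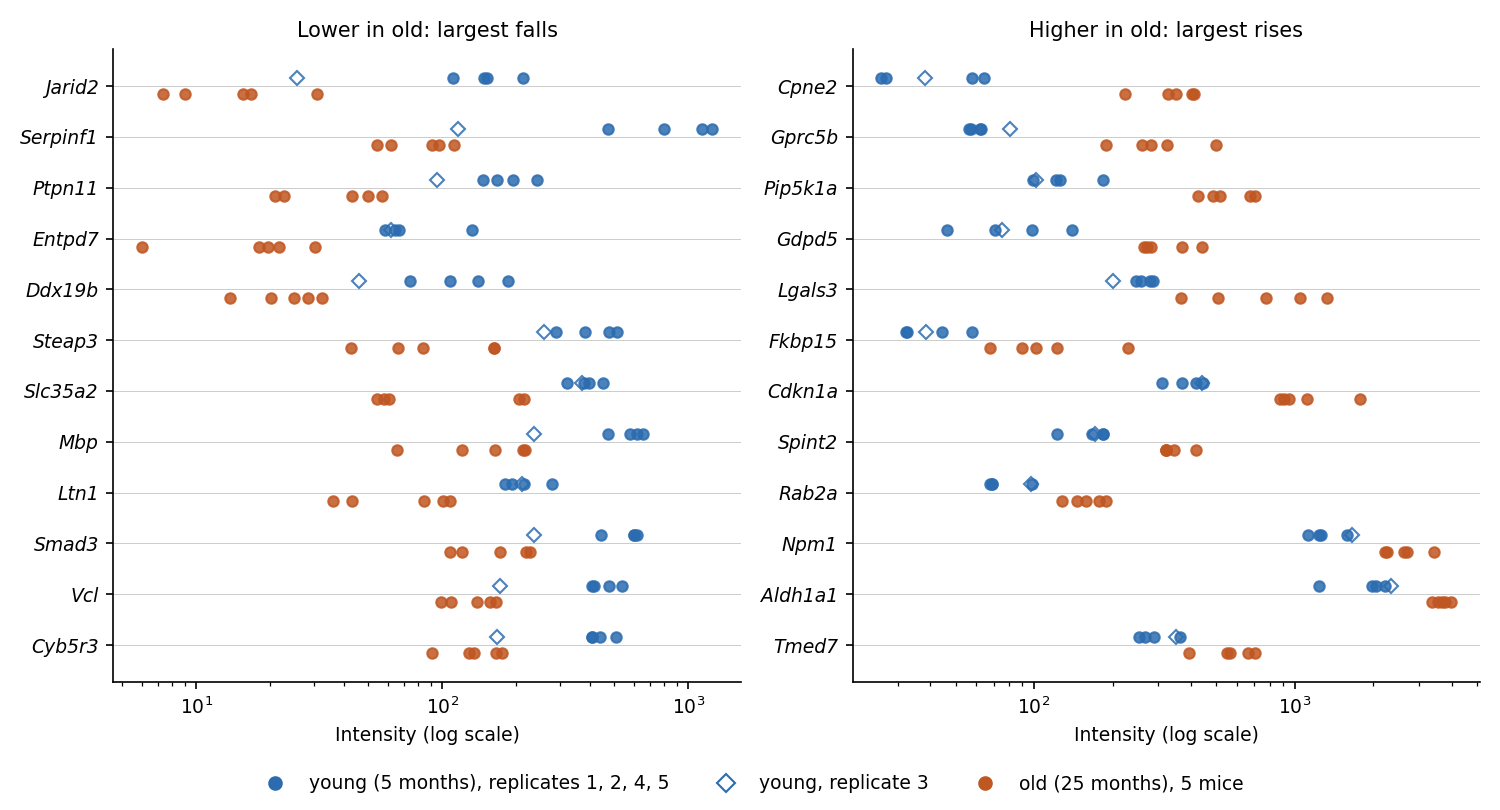
Intensity (log axis) in each of the 5 young and 5 old mice for the 12 called genes with the largest falls and the 12 with the largest rises, apart from Tmem183a, Actc1, Acly, Panx1, Amy1 and Pde4b; each point is 1 mouse and the open diamond is young replicate 3. In Serpinf1, Vcl, Cyb5r3, Smad3 and Jarid2 the diamond lies beside the old mice, while the other young mice stand apart from them.

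The other probe sets of a gene gave a view of each call that the call itself did not use, although they read the same RNA of the same mice. Of the 49 called genes, 33 had other probe sets. The 10 rising genes had 22 others, of which 19 were higher in old mice and 8 (36.4%) were so at an unadjusted p under 0.05, which held for 6.24% of all probe sets. The median of the 22 was 0.31. The 23 falling genes had 53 others, of which 38 were lower in old mice and 13 (24.5%) were so at an unadjusted p under 0.05, against 9.25% of all probe sets. The median of the 53 was -0.21. The other probe set was the brighter one in 13 of 22 and in 34 of 53 cases. The rising genes with at least 1 other probe set of that kind were Kcnab1, Npm1, Pde4b, Rab2a, Spint2 and Tmed7. The falling ones were Acly, Cyb5b, Jarid2, Ptpn11, Serpinf1, Slc35a2, Steap3, Tgoln1 and Tmem183a. In Mbp, Pip5k1a, Gprc5b, Vcl and Mpdz, chosen after their values were seen, a brighter probe set stayed between -0.14 and 0.02.

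**Figure D2:**
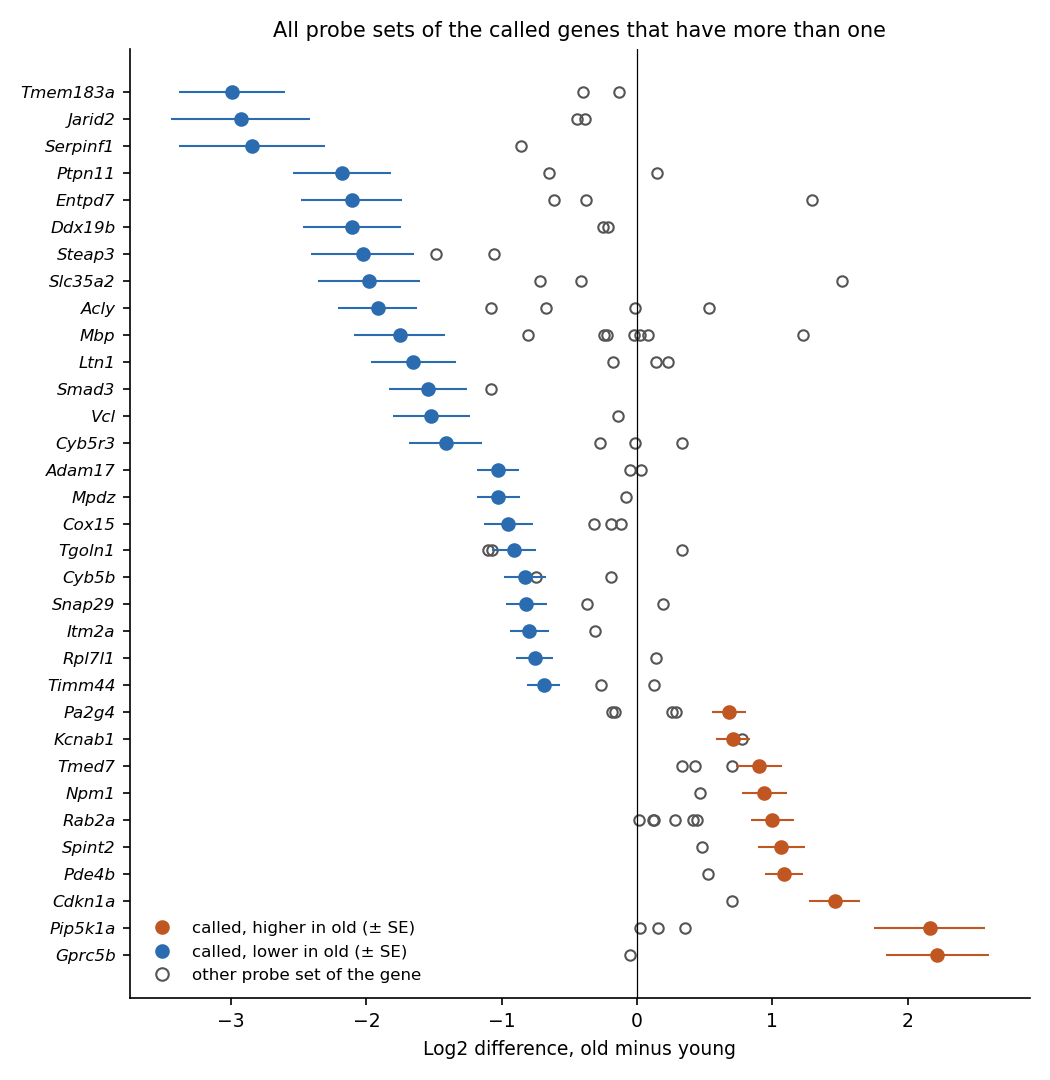
Log2 difference (old minus young) of every probe set of the 33 called genes with more than 1 probe set; filled points are the called probe sets with their SE, open points the other probe sets of the same gene. Open points lie nearer to 0 than the filled point in most genes, and the median of the open points is 0.31 for rising and -0.21 for falling genes.

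Among the brightest probe sets, the 12 rises of smallest adjusted p without overlap included 1 gene not called over all probe sets, Ccl8, a chemokine that attracts monocytes. It was read at 355, 576, 354, 399 and 590.0 in the young and 713, 850.4, 1106, 732 and 1052 in the old mice. All old mice were above all young mice, with a log2 difference of 0.98 (SE 0.19) and an adjusted p of 0.0119 there and 0.0538 over all probe sets (limma). The 12 falls chosen in the same way were all called over all probe sets.

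Of the 18 genes of the p53 pathway that the study names, 17 were measured. The study chose these genes for an age effect on these samples, so that neither their direction nor their share of calls is independent evidence. By the brightest probe set of each gene, 12 were higher and 5 lower in old mice, with a median of 0.47, against 43.7% of genes higher and a median of -0.05 over all 12393 genes. Cdkn1a was called over all probe sets (0.186% of genes). Among the brightest probe sets 5 of 15 were called, against 4.61% of 6943 genes, and these were Cdkn1a, Rb1, Gadd45a and Mcl1 upward and Dusp10 downward. Rb1, the retinoblastoma protein that holds cells out of the cycle, was read at 254, 176, 299.6, 291 and 293 in the young and 417, 613, 329, 578 and 512 in the old mice, a log2 difference of 0.89 (SE 0.23). The 5 old mice were all above the highest young mouse. Gadd45a, which acts in growth arrest after DNA damage, was read at 271, 116, 210.3, 203 and 247 in the young and 296, 432, 247, 924 and 546 in the old mice, and its log2 difference of 1.12 (SE 0.34) was accompanied by overlap between the groups, with old replicates 4 and 5 highest. Mcl1, an inhibitor of apoptosis, had 6 probe sets with differences between 0.37 and 0.67, all positive. Dusp10, a phosphatase of p38 and JNK, had -0.85 (SE 0.26) and -0.94 (SE 0.27) at its probe sets, both lower in old mice.

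Several other genes of that set differed between their probe sets in size or in direction. Ccng1, which encodes cyclin G1, had -0.08, -0.04 and -0.65, and young replicate 3 was at 3677 in the last of these against 6524 to 7614 in the other young mice. Mdm2, the ligase that degrades p53, had -0.04 and -0.21. Sesn1, a stress protein that restrains mTORC1, had -0.14, 0.32 and 0.46. Peg3 had -0.11, 0.32 and 0.45, and Plagl1 had 1.09 and 0.57. Dusp1, Myod1 and Igfbp3, with 1 probe set each, had 0.65 (SE 0.22), 0.60 (SE 0.21) and 0.17 (SE 0.22), and Bcl6 had -0.47 and -0.94. None of these was called. A broader list of 33 textbook targets of p53, of which 30 were measured, had a median of 0.03, with 16 genes higher and 14 lower. Of these 30, Cdkn1a was called over all probe sets, and Cdkn1a and Gadd45a among the brightest. The pro-apoptotic targets Bbc3, Bok and Pmaip1 had 0.26 (SE 0.25), 0.83 (SE 0.44) and 0.07 (SE 0.49), none of them called. Pmaip1 was very dim, at 2.13 to 9.87 in all mice, so that its difference says little. Tnfrsf10b, also pro-apoptotic and not called, was lower in old mice without the 3' minus 5' covariate and higher with it. Pmaip1 changed direction too, to -1.16 with the covariate. Cdkn2a, which encodes p16 and is also named by the study, has 1 probe set. It was read at 134, 129, 114, 110 and 100 in the young and 59.5, 89.0, 84.4, 90.5 and 74.2 in the old mice. Its log2 difference was -0.57 (SE 0.50), without overlap and not called. The paper counts the p16 transcript as below background on the arrays of all animals. The paired CATG motif was found in 1 of 13 genes of the study's set that had a sequence and in 1 of 25 of the textbook list, in both cases Cdkn1a.

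**Figure D3:**
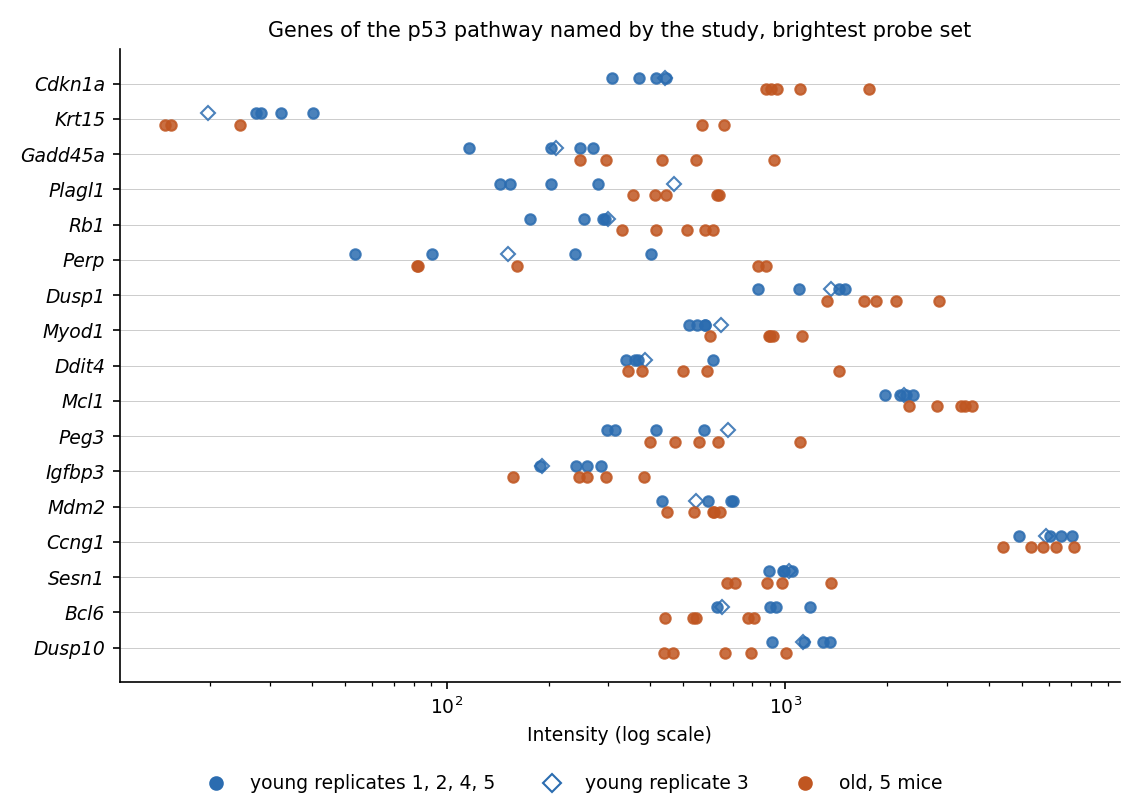
Intensity (log axis) of the 17 measured genes of the p53 pathway that the study names, in each young and old mouse, ordered by log2 difference; each point is 1 mouse and the open diamond is young replicate 3. Cdkn1a and Rb1 separate the 5 old from the 5 young mice, while Krt15 and Perp are high in 2 old mice only.

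The C/EBP transcription factors, which act in inflammation and in fat cells, were not called in old mice. Cebpb was read at 1277, 1356, 1077, 1621 and 1137 in the young and 1197, 2067, 1364, 2539 and 3781 in the old mice, a log2 difference of 0.65 (SE 0.28), and its second probe set had 0.90 (SE 0.47). Cebpd was read at 278, 538, 448, 419.7 and 308 in the young and 495, 602, 505, 1635 and 2901 in the old mice, a difference of 1.27 (SE 0.47), and its second probe set had 0.13 (SE 0.32). In the first probe set of both genes old replicates 4 and 5 were highest, and old replicate 2 was also above all young mice. The same 2 mice had the highest Gadd45a, and old replicate 5 had the highest Ddit4, a stress-induced inhibitor of mTORC1 (361, 613, 385, 339 and 368 in the young and 376, 498, 344, 586 and 1438 in the old mice). Cebpa had 0.47 (SE 0.22), with 3 of 5 old mice above the highest young one.

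Krt15 and Perp, both of the p53 set, are genes of epithelia. Krt15 was read at 40.3, 32.4, 19.7, 28.3 and 27.4 in the young and 15.3, 569.5, 657, 14.7 and 24.5 in the old mice, and Perp, a desmosome protein, at 402, 53.7, 152, 90.4 and 239 in the young and 82.2, 879, 833, 162 and 81.8 in the old mice. Old replicates 2 and 3 were high in both, and without these 2 mice the log2 difference was -0.71 for Krt15 and -0.52 for Perp, against 1.34 and 0.70 with all mice. The 6 keratinocyte markers showed the same arrays. Krt10, a keratin of the upper epidermis, was read at 1378, 166, 159, 139 and 437 in the young and 137, 4835, 5893, 177 and 186 in the old mice. Krt5, of the basal epidermis, was read at 441, 80.0, 102, 31.0 and 195 in the young and 121, 1298, 1360.3, 166 and 98.0 in the old mice. Krt1 and Lor also had their highest values in old replicates 2 and 3, at 1333 and 1542 for Krt1 and at 1464 and 1558 for Lor, while Sfn was dim in all mice, at 6.18 to 28.1. Krt14 did not stand out in the 2 mice at its brightest probe set (-0.03), but it did at another one, read at 205, 106, 28.1, 20.1 and 118 in the young and 23.9, 779, 876, 20.1 and 58.2 in the old mice. The summed intensity of the 6 markers ran from 594 to 3004 in the young and from 888 to 10549 in the old mice, and their median log2 difference was 0.86 with all mice and -0.02 without old replicates 2 and 3. Of 39 keratins measured, 28 were higher in old mice with a median of 0.29, none was called, and without the 2 mice 18 were higher with a median of -0.03. Old replicates 2 and 3 were the 2 highest mice in 9 of the 39 keratins. Krt25, a keratin of the hair follicle, was high in old replicate 2 alone, being read at 12.2, 8.34, 51.4, 23.3 and 12.3 in the young and 8.58, 741, 25.3, 63.5 and 11.9 in the old mice. Young replicate 1 also had raised Krt10 and Krt77, at 1378 and 1327. Krt25 and Krt77 were chosen after their values were seen. Over all probe sets, 58 had both old replicates 2 and 3 above 2 times the value of every other mouse.

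**Figure D4:**
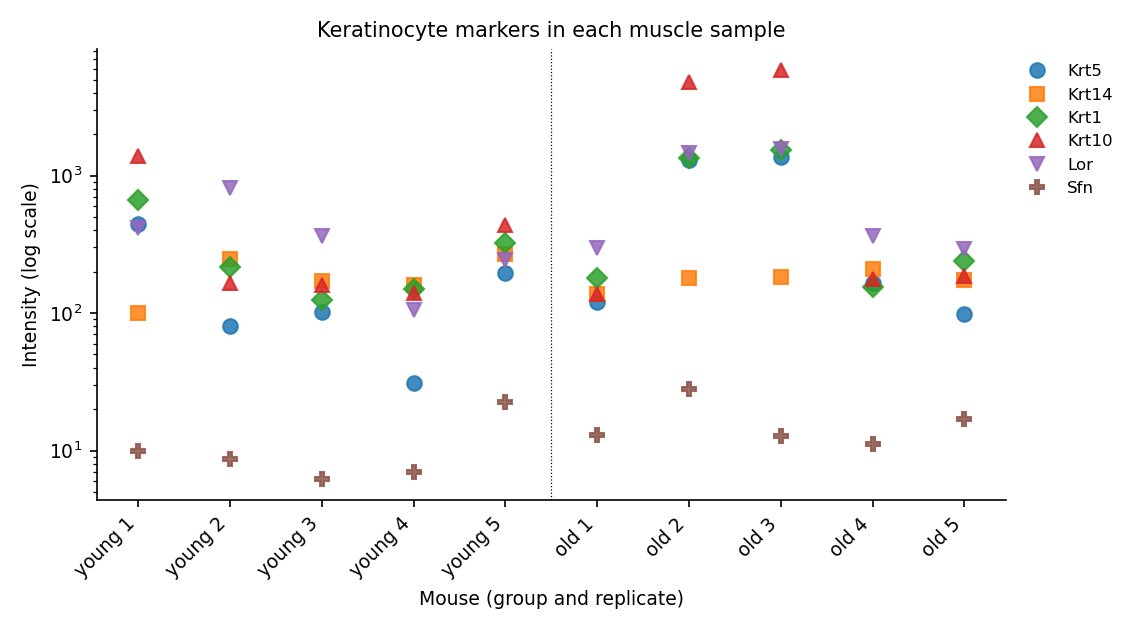
Intensity (log axis) of the 6 keratinocyte markers, each by its brightest probe set, in each of the 5 young and 5 old mice; each point is 1 gene in 1 mouse. Krt10, Krt5, Krt1 and Lor are high in old replicates 2 and 3 and, for Krt10, Krt5 and Krt1, less so in young replicate 1.

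The probe sets of Fmod, of Tfrc and of Marcks each shared a sign. Fmod, which encodes fibromodulin, a proteoglycan that binds collagen, had 6 probe sets with differences from -0.97 to -0.81. Its brightest was read at 4091, 6199, 4674, 6056 and 5566 in the young and 2387, 1602, 4539, 2829 and 3167 in the old mice, with old replicate 3 among the young mice, and was called among the brightest probe sets (adjusted p = 0.0272, limma). Tnmd, the tendon marker tenomodulin, had -1.20 (SE 0.36), and the 5 tendon markers had a median of -0.60 with 4 lower. Tfrc, the transferrin receptor, had -2.03 (SE 0.47), -1.09 (SE 0.24) and -0.90 (SE 0.32). The first of these was read at 1384, 639, 487, 509 and 2547 in the young and 385, 325, 264, 93.8 and 161 in the old mice, so that no old mouse reached a young one, and young replicates 1 and 5 were far above the other young mice. Marcks, a substrate of protein kinase C at the membrane, had 6 probe sets from 0.15 to 0.91, all positive, although the lowest of them had -0.33 with the 3' minus 5' covariate.

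Lists of further pathways were read by the brightest probe set of each gene, beside a share of 4.61% called among the brightest probe sets (2.25% higher and 2.36% lower) and a median of -0.05 over all genes. The 3' minus 5' covariate moved genes named below both ways. Capn3 (-0.20), Smyd1 (-0.20), Syne1 (0.31), Arf6 (0.43) and Clcn3 (-0.41) were smaller in size with it. Frzb (-1.96), Myl4 (1.07), Acvrl1 (-0.75), Camk2b (0.68) and Cd59a (0.79) were larger. The part of RNA quality in these genes was not tested. Among ion channels and pumps of the muscle membrane, 34 were measured, 22 of them lower in old mice, with a median of -0.23. Over all probe sets none was called, and of 24 among the brightest 2 fell. Cacng6, a subunit of the calcium channel family, was read at 1986, 1898, 568, 1591 and 2042 in the young and 846, 466, 659, 476 and 632 in the old mice, a log2 difference of -1.29 (SE 0.35), with young replicate 3 among the old mice. The other probe set of Cacng6 had -0.43 (SE 0.13). Clcn3, a chloride transporter of internal membranes, had -0.68 (SE 0.17) at its called probe set and -0.12, 0.06 and 0.20 at the others. Clcn3 was thus lower at 1 probe set, and at the other bright ones it was near 0.

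Of 31 actins, myosin light chains and tropomyosins, with genes that act on them, 23 were lower and the median was -0.20. Among 28 of the brightest, 3 fell and 1 rose. The fall of cardiac actin (Actc1) was called over all probe sets, and the others were Myl9, the light chain of smooth muscle myosin (-0.65 (SE 0.13)), and Smyd1, a methyltransferase needed for the sarcomere (-0.55 (SE 0.16)). Myl4, the light chain of embryonic and atrial muscle, rose among the brightest, being read at 836, 631, 546, 683 and 767 in the young and 993, 1273, 991, 1026 and 1415 in the old mice. Its dim probe set had -0.93. The second bright probe set of Smyd1 was read at 2300.2, 1643, 267, 2434 and 1825 in the young and 633, 495, 374, 464 and 520.0 in the old mice, and there young replicate 3 was the lowest of all 10 mice, below the old ones.

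Of 48 genes of TGF-beta, BMP and activin signaling, Smad3 was called over all probe sets. Among the brightest, Smad3 and Acvrl1, a receptor of BMP9 in vessels (-0.61 (SE 0.15)), fell and Acvr2a, a receptor of myostatin and activin, rose. Acvr2a was read at 716, 632, 913, 506 and 694 in the young and 992, 1023, 944, 1109 and 1246 in the old mice, without overlap, and its dim probe set had 0.59. Of the list, 26 genes were higher and 22 lower in old mice, and its median was 0.07 by the brightest probe set and -0.14 with each gene averaged over its probe sets. Of 43 MAP kinases and dual specificity phosphatases, 27 were lower with a median of -0.12, and Map2k6 and Dusp10, which act on p38 in opposite directions, were the 2 called among the brightest, both downward.

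Calcineurin and calmodulin kinases link calcium to gene expression in fibers. Of 35 such genes measured, Ppp3ca, a catalytic subunit of calcineurin, rose among the brightest, with 0.62 (SE 0.17) and 0.49 and 0.57 at its other probe sets. Camk2b rose too, with 0.47 (SE 0.13). Camk2a, also a calmodulin kinase, had -3.18 (SE 0.88) at a dim probe set read at 324, 261, 9.52, 315 and 238 in the young and 17.6, 13.4, 38.9, 14.0 and 7.75 in the old mice. In the young mice it was high except in replicate 3, which lay with the old mice, and it was called without that mouse (adjusted p = 0.000898, limma) and not with it (adjusted p = 0.109).

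In Wnt signaling, 50 genes had a median of -0.01. Frzb, a secreted inhibitor of Wnt proteins, fell among the brightest and was read at 378, 460.3, 426, 524 and 400.2 in the young and 287, 222, 219, 140.5 and 79.8 in the old mice. Its second probe set had -1.36 (SE 0.53). Wnt2b, a Wnt ligand, was the other gene of the list called among the brightest, with -0.53 (SE 0.16) and an adjusted p of 0.0494 there (limma). Dkk2, a secreted Wnt regulator, was read at 83.0, 93.3, 213, 132 and 67.4 in the young and 389.6, 298, 299.7, 184 and 411 in the old mice, a difference of 1.498 (SE 0.35), with an adjusted p of 0.0757 over all mice, 0.00885 without young replicate 3 and 0.0472 with log2(value + 32) (limma).

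Of 52 genes of DNA repair and the nuclear lamina, Terf2, which protects telomeres, and Syne1, which ties nuclei to the cytoskeleton, rose among the brightest (0.86 (SE 0.24) and 0.69 (SE 0.15)). The other bright probe set of Syne1 had 0.07 (SE 0.19). Banf1, which binds chromatin to the lamina, fell, with -0.44, -0.84 and -0.85 at its 3 probe sets. Of 47 proliferation genes, Rrm1, a subunit of ribonucleotide reductase, and Cdc20, an activator of the anaphase complex, fell among the brightest (-0.80 (SE 0.18) and -0.68 (SE 0.20)) while Rb1 rose. The other bright probe set of Rrm1 had -0.17 (SE 0.14), and the dim ones of Cdc20 had -0.39 and -0.29. The median of that list was -0.01.

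Of 36 genes of phospholipid and triglyceride assembly, Gpat4 and Gpd2, enzymes that handle glycerol 3-phosphate, fell among the brightest (-0.68 (SE 0.15) and -0.54 (SE 0.14)). The dim probe set of Gpat4 had -0.24 (SE 0.26). Gpd1, of the same substrate, was not called at its brightest probe set (-0.60 (SE 0.18)), but a second one was read at 3142, 3882, 640.0, 3485 and 3368 in the young and 772, 737, 718, 633 and 927 in the old mice, with young replicate 3 again among the old mice. Of 52 genes of amino acid, creatine and purine metabolism, 31 were lower and none was called among the 43 brightest. The median was -0.09. Got1, the cytosolic aspartate aminotransferase, was among its members of smallest p, with -0.54 (SE 0.17) (adjusted p = 0.0538 among the brightest, limma). Of 29 genes of the dystrophin complex and membrane repair, Capn3, the muscle calpain lost in a limb-girdle dystrophy, was the 1 gene that fell among the brightest (-0.54 (SE 0.14)), with 19 of 29 lower.

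Secreted factors of senescent cells had a median of 0.01 over 36 genes, and among the brightest Ccl8 rose and Igfbp6, which binds IGF-II, fell (-0.53 (SE 0.14)). Complement and acute phase genes had a median of -0.09 over 38 genes, with Cd59a, an inhibitor of the membrane attack complex, higher among the brightest (0.53 (SE 0.12)). The other probe set of Cd59a had 0.34 (SE 0.22). Of 51 genes of the early secretory pathway, Arf6, a GTPase of the plasma membrane, rose among the brightest with 0.83 (SE 0.20), and its other probe sets had -0.33, 0.78 and 1.26. In the lists of nuclear receptors (40 genes), cytokine receptors with JAK and STAT (41 genes) and peroxisome biogenesis (22 genes), no gene was called over all probe sets or among the brightest. Notch signaling had 1 gene called among the brightest, Psen2 of the gamma-secretase (0.48 (SE 0.14)), with a median of -0.05 over 29 genes. The dim probe set of Psen2 had -1.02 (SE 0.34), in the opposite direction. The 12 genes that regulate p53 also had 1 called among the brightest, Dusp10.

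**Figure D5:**
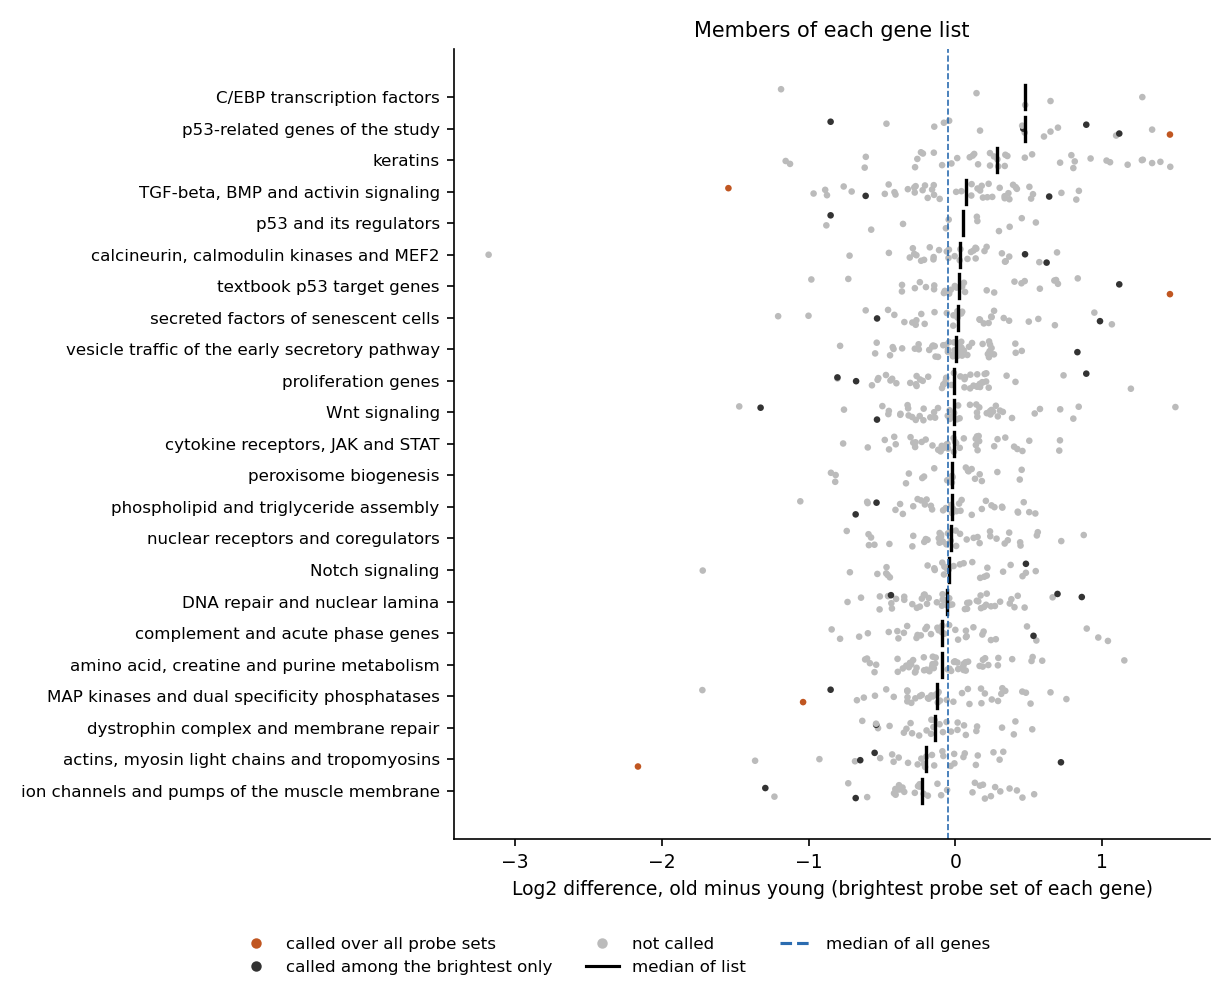
Log2 difference (old minus young) of each measured gene in 23 lists, by its brightest probe set; each point is 1 gene, the black bar is the median of the list and the dashed line the median of all genes (-0.05). The medians run from -0.23 for ion channels and pumps to 0.47 for C/EBP factors and the p53 genes of the study, and most lists lie close to the dashed line.

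Markers of other cell types were read in the same way. The 3 adipocyte markers measured were all higher in old mice with a median of 0.60 and none called, as in Adipoq, read at 2134, 1886, 4354, 3696 and 1794 in the young and 6196, 4868, 3134, 2406 and 4112 in the old mice. The 5 macrophage markers had a median of 0.02. Csf1r, the receptor that macrophages need, had 0.42 (SE 0.17) at its brightest probe set and -0.04 and 0.13 at the others. The 3 Schwann cell markers had a median of -0.01, and Pmp22, a myelin protein that other cells also make, fell among the brightest (-0.55 (SE 0.13)). The 4 B and plasma cell markers measured had a median of 0.32, with 2 higher and 2 lower in old mice and none called. Without old replicates 2 and 3 their median was 0.12. Of these, Jchain, which joins immunoglobulins in plasma cells, was read at 106, 101, 67.7, 74.3 and 146 in the young and 213, 670.1, 170.4, 176 and 1067 in the old mice, highest in old replicates 2 and 5. The immunoglobulin kappa chain probe sets given above carry several symbols and are not in this list. They rose and were called, and old replicates 2 and 5 were highest in them as well. The parts of these cells in the results were not tested.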

How the data were processed

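RNA of the gastrocnemius was measured with 1 MOE430A array per mouse, in 5 young, 5 old and 5 old CR mice. Messenger RNA was purified from total RNA and copied to biotin-labelled cRNA, and arrays were scanned more than once, the authors taking the average image. In the table that the authors deposited, each value is a linear intensity, with a mean of 500.0 after trimming 2% at each end of each array, as scaling array by array gives. The submitters' processing notes name MAS5 and RMA, with no version. The values were taken as deposited, converted to log2 with no pseudocount and analysed in R 4.3.3 by limma 3.58.1 (lmFit and eBayes without a trend, 3 groups in 1 fit, prior degrees of freedom 2.17). Adjustment was by Benjamini and Hochberg over 22626 probe sets. Figures and exact permutation tests were made in Python 3.11.15 with SciPy 1.17.1 and Matplotlib 3.10.9. The platform annotation gave 1 gene symbol for 20380 of the tested probe sets, more than 1 for 691 and no symbol for 1555. The last 2 kinds were left unnamed, apart from probe sets that the paper lists as immunoglobulin kappa chain. Promoter sequences were those of RefSeq, matched by symbol for 40 of the 49 called genes.

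The genes, lists and rules were chosen with earlier results of these data known. Genes named were all called ones, with values per mouse for the 12 largest rises and the 12 largest falls not described elsewhere, then the 12 rises and 12 falls of smallest adjusted p among the brightest probe sets, genes named by the paper, up to 4 members of smallest p per list, and cell type markers. The other probe sets of these genes were read as well, and not every one of their values is printed. Krt25 and Krt77 were added after their values were seen. Lists were described by counts and medians, with no test of a list. The labels do not say whether the mice of a group were killed together. Each limma p-value sets a difference in means against a spread between these mice. That spread was estimated over the 3 groups and moderated across probe sets. The number of arrays limits the precision. In data simulated for old against young, 39% of 2-fold and 81% of 4-fold differences were recovered over 22626 probe sets, and 75.6% and 98.3% among the brightest. The alternatives were the brightest probe sets, median centering, quantile normalization, log2 of the value plus 32, a fit of only the 2 groups, a variance trend with robust eBayes, weights for arrays, a block for the replicate number, the 3' minus 5' covariate, leaving out each array in turn, and, for lists, each gene by the mean over its probe sets. Leaving out old replicates 2 and 3 was added after the data were seen.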

Additional observations from a re-analysis of the deposited data

Results flagged for a closer look

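In 19 of the 234 groups of 5 mice tested, over the genes named and the Gapdh and Actb control differences, 1 mouse lay far from the other 4 on the log2 scale (Dixon's ratio above 0.710, which chance passes in about 1 of 20 groups). Young replicate 3 was the mouse in 7 of them. It was low in Vcl (172.6), Mpdz (334), Extl1 (503), Cyb5r3 (166.5), Cacng6 (568), Camk2a (9.52) and Cox15 (425), and in all of these its value lay toward the old mice. The other young mice were replicate 1, low in Pmp22 (2588) and high in Camk2b (822), replicate 2, low in Aldh1a1 (1234) and high in Ddit4 (613) and Rrm1 (965), replicate 4, low in Spint2 (122), and replicate 5, high in Entpd7 (132). Among the old mice, replicate 3 was low in Pde4b (1980), replicate 4 low in Igfbp6 (832), and replicate 5 low in Cd59a (1375) and high in Banf1 (2011) and Spint2 (418).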

How the results depend on the processing

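The count of called probe sets was unstable. Against 60 over all probe sets and mice, 596 were called among the brightest probe sets, 196 with log2(value + 32), 418 with a variance trend and robust eBayes, 770 with array weights, 6 with only young and old arrays in the fit, 7 without old replicates 2 and 3 (added after seeing the data), and 1537 among the brightest without young replicate 3. Median centering gave 44 and quantile normalization 42. Leaving out each array in turn gave 0 to 1067: over 1.5 times more without young replicate 3 (1067) and over 1.5 times fewer without young replicates 1 (0, with 3090 at an unadjusted p under 0.05), 2 (11), 4 (9) and 5 (8), old replicates 2 (10), 3 (32), 4 (14) and 5 (28) and old CR replicates 3 (28), 5 (18), 6 (14) and 7 (31). With the 3' minus 5' covariate none was called (limma, 1453 at an unadjusted p under 0.05). With the replicate number as a block none was called (limma, 3068 at an unadjusted p under 0.05). The numbers are only shared between groups, since the correlation of same-numbered young and old mice ran from -0.28 to 0.05 and no mouse correlated best with its own number.

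Directions reversed only in uncalled genes. Without old replicates 2 and 3 the log2 differences were -0.52 for Perp, -0.37 for Krt1, -0.71 for Krt15, -0.088 for Igfbp3, -0.86 for Krt77 and -0.83 for Krt10. With the covariate Pmaip1 was at -1.16, Ccng1 at 0.21, Tnfrsf10b at 1.35 and Krt14 at 0.0050. With median centering Ccng1 was at 0.011, Mdm2 at 0.047 and Krt14 at 0.063, with quantile normalization Myh4 at 0.10 and Krt14 at 0.059, and with array weights Krt14 at 0.017. Leaving out single mice moved Pmaip1 between -0.23 and 0.33, Ccng1 between -0.16 and 0.015, Mdm2 between -0.15 and 0.041 and Krt14 between -0.24 and 0.12. With each gene taken as the average over its probe sets, list medians turned from above to below 0 for TGF-beta, BMP and activin signaling (-0.14), calcineurin and calmodulin kinases (-0.059), secreted factors of senescent cells (-0.064), the early secretory pathway (-0.12) and mast cell markers (-0.15). The causes were not tested. The number of arrays limits small changes, of which 39% were recovered at 2-fold over all probe sets.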
